A study of Homo sapiens with 6 samples.

Results

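The comparison described here set SKOV3 cells with the STING1 genotype WT/HAQ against SKOV3 cells with the genotype WT/-, both after cGAMP, and used 2 of the 6 RNA-seq libraries of the study. SKOV3 is an established ovarian cancer cell line, and HAQ is a STING1 haplotype with 3 linked amino acid changes. WT/HAQ was the parent line, which carries 1 WT and 1 HAQ allele, and WT/- was a clone that kept only the WT allele after a pair of guide RNAs and Cas9 had disrupted the HAQ allele. The clone went through lentiviral delivery, puromycin selection and limiting dilution, so the genotype, the selection and the clone cannot be told apart in this pair. Treated cells were permeabilized with digitonin, received 2'3'-cGAMP at 10 μg/mL for 30 min and rested for 4 h. The control libraries of the same lines served to separate genes that already differed without cGAMP. The other clone of the study, HAQ/-, kept only the HAQ allele and gave 1 control and 1 cGAMP library that are used below for position and in the line test. Each line and treatment gave 1 library, nothing says from how many cultures, and how the control cells were handled was not described. The table listed 60498 genes, and the 15126 with a mean of 10 or more counts per library were analysed. The 34 genes just inside this limit had a mean of exactly 10, and the 29 just outside had a mean of 9.83.

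The deposited estimated counts, rounded, summed to between 12444791 (WT/- cGAMP) and 17608427 (WT/HAQ control) per library, and all levels below are counts scaled to a common library size by the TMM method. ERBB2, amplified in SKOV3, lay between 46463 and 69247 normalized counts and KRT8, an epithelial keratin, between 9067 and 14630 in the 6 libraries. The leukocyte markers PTPRC, CD3E and CD14 stayed at or below 3.80 normalized counts in every library. The 15 markers of other cell types summed to 1695 normalized counts in the WT/HAQ and 1819 in the WT/- cGAMP library, or 0.0107% and 0.0109% of the counts, and to 1235 and 1322 in the controls. Most of that sum came from DCN, LUM, CD68 and ALB, at 152 to 698 normalized counts in the libraries of both lines. In the cGAMP libraries, 3 and 2 of these markers were at 0. Between the lines, KRT19, a keratin of simple epithelia, stood at 5629.7 normalized counts in the WT/HAQ control and 3605 in its cGAMP library, against 364 and 369 in WT/- and 414 and 343 in HAQ/-. In bulk libraries such as these, fewer cells of a kind and less RNA per cell cannot be told apart.

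STING1 is the endoplasmic reticulum protein that binds cyclic GMP-AMP, the second messenger made by cGAS on cytosolic DNA. Bound STING1 moves to the Golgi and recruits TBK1, which phosphorylates IRF3 and leads to transcription of IFNB1 and other early genes, and secreted interferon then drives interferon-stimulated genes (ISGs) through the JAK kinases and ISGF3. STING1 also activates NF-kB, whose targets include chemokines, interleukins, adhesion molecules and its own inhibitors. In ovarian cancer cells, NF-kB targets such as CXCL8 and IL6 can also be expressed without STING1 signalling.

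Promoter sequences are printed for 5 genes that the results turn on, CXCL8, CCL20 and ICAM1 as NF-kB targets that were higher in WT/-, IFNB1 as the first interferon gene of the pathway, and RSAD2 as the ISG with the widest gap toward WT/HAQ. Each is the 250 bases before the RefSeq start of the gene on GRCh38.p14, written 5' to 3' on the strand of the gene. Capitals mark the match to GGAANNNCC, part of the NF-kB site, in the first 4, and to GAAANNGAA, part of the IRF and ISGF3 site, in RSAD2.
CXCL8, plus strand, chr4:73740319-73740568: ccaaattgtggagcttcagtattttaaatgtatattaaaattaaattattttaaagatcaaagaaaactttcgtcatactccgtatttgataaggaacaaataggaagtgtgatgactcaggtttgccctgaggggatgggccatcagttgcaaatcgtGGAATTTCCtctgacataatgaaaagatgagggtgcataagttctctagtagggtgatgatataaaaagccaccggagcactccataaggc
CCL20, plus strand, chr2:227813592-227813841: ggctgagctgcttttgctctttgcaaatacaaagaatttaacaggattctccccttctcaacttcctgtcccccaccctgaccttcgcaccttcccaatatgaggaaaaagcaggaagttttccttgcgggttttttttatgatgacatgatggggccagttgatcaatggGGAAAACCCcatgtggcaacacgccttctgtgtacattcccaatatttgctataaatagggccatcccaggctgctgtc
ICAM1, plus strand, chr19:10270870-10271119: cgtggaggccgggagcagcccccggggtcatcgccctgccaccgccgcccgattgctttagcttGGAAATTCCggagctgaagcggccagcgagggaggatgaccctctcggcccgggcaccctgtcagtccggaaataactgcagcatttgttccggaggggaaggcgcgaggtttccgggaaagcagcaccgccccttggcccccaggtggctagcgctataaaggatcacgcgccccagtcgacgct
IFNB1, minus strand, chr9:21077943-21078192: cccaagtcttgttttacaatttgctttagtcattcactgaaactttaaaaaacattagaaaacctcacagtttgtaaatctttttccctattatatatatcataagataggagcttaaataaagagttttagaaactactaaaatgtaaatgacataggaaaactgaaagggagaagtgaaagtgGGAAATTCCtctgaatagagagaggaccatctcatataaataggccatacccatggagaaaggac
RSAD2, plus strand, chr2:6865635-6865884: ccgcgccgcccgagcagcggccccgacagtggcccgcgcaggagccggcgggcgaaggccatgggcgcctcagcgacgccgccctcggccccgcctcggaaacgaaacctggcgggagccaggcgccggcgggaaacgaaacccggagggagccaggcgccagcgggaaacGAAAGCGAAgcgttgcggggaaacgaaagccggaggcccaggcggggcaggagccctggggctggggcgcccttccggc
Both motifs were searched on both strands in the 300 bases from 250 before to 50 after the start, and their letters can share bases. Of the 11170 analysed genes with such a sequence, 23.2% held GGAANNNCC and 6.45% held GAAANNGAA. A match is a description of the letters and not a shown binding site.

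A ratio could be formed for 15116 genes after cGAMP, since both treated libraries were at 3 counts or fewer in the other 10. Of these genes, 75.5% lay within 1.5-fold between WT/HAQ and WT/-. At least 2-fold differences were found for 1735 genes, of which 698 were higher in WT/HAQ (4.62% of the genes) and 1037 were higher in WT/- (6.86%). In the controls, 642 genes were higher in WT/HAQ (4.26% of 15078) and 863 in WT/- (5.72%). The median absolute log2 ratio was 0.28 in both pairs. Across the 15068 genes with both ratios, the treated and the untreated log2 ratio had a Pearson r of 0.62 and a Spearman rho of 0.58. These points are genes and not replicates, and the pairs share no library.

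Of the genes that were 2-fold apart after cGAMP, 330 of the 698 higher in WT/HAQ and 431 of the 1037 higher in WT/- were also 2-fold apart on the same side in the controls, and are called already different. A further 118 and 225 were 1.5- to 2-fold apart in the controls. Those under 1.5-fold apart in the controls, called different after cGAMP only, numbered 180 and 312. Another 57 and 58 had leaned at least 1.5-fold to the other side in the controls, and 13 and 11 had no control ratio because both control libraries held 3 counts or fewer. In the reverse direction, 154 genes higher in WT/HAQ and 209 higher in WT/- by 2-fold in the controls were under 1.5-fold apart after cGAMP. With 1 library per line and treatment, none of these classes rests on a test. The genes described below are the 6 per direction with the widest treated gap in the first and the after-cGAMP-only class and 3 per direction in the opposite one, among protein-coding genes with at least 50 normalized counts in the higher treated library, together with STING1, 7 response genes and up to 3 genes per gene list. KRT19, TBK1, IRF3, IFNL3, CXCL11, MX1, GBP4, IL33, CXCL8, IL6, CSF2, ERBB4, TRIM16L and AKR1C1 fall outside that rule and were chosen with their values known.

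**Figure D1:**
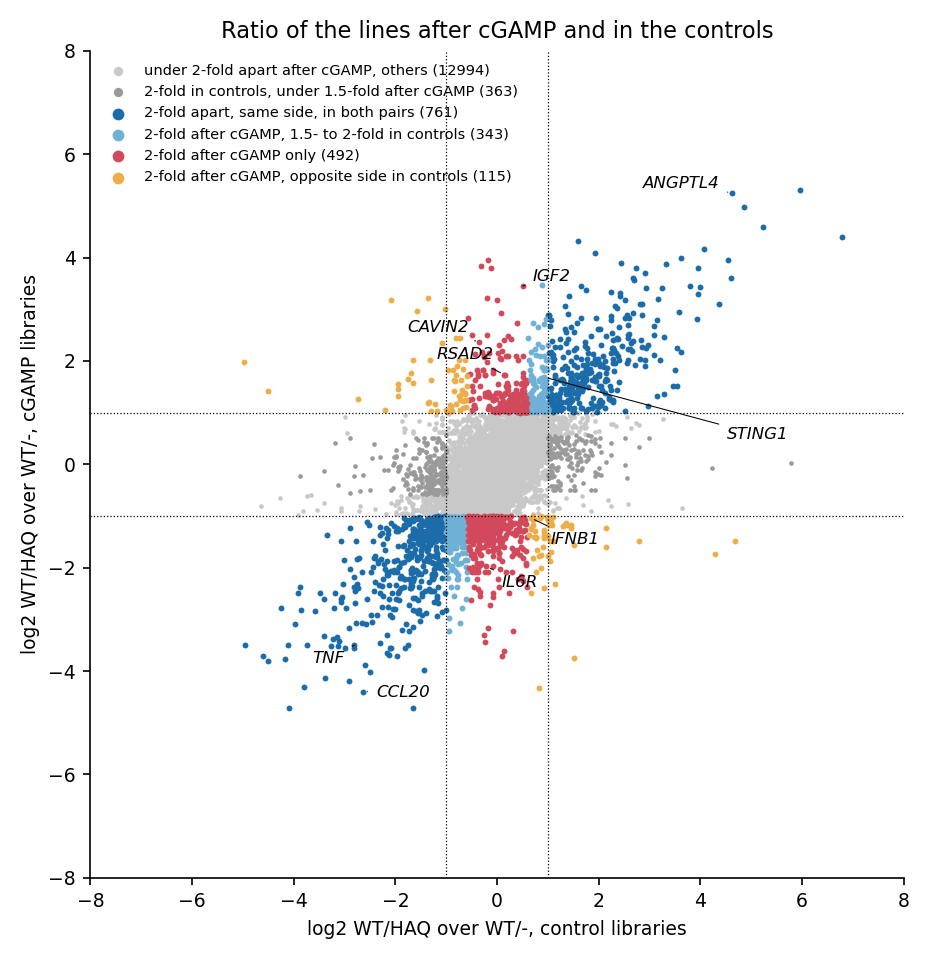
Each point is an analysed gene, with the log2 ratio of WT/HAQ over WT/- in the control libraries on the x axis and in the cGAMP libraries on the y axis, and dotted lines at 2-fold. The 761 genes already different (dark blue) lie along the diagonal, and the 492 genes different after cGAMP only (red) lie in the 2 vertical strips above and below the centre.

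The lines themselves could be tested, since each gave 2 libraries once the treatment was a term of the model. These were 1 control and 1 cGAMP library and not replicates. The residual spread is therefore how unequally the 3 lines, HAQ/- included, differed between treatments. It does not measure the spread between replicate cultures or clones. In edgeR's quasi-likelihood test with 2 residual degrees of freedom, 577 genes were higher in WT/HAQ (3.81% of 15126) and 755 in WT/- (4.99%) at an adjusted p under 0.05. The test called 209 of the 330 and 265 of the 431 genes already different in the same direction, a selection it shares libraries with. It called 1 of the 180 and 3 of the 312 genes different after cGAMP only. That class requires unequal gaps with and without cGAMP, which the model counts as residual spread. Few calls follow from this rule, so nothing is read from them. The calls depend on both WT/- libraries. Without the WT/- control library edgeR called 0 genes in either direction (992 and 1266 at an unadjusted p under 0.05), and without the WT/- cGAMP library it also called 0 (1129 and 1300). Without the WT/HAQ control library 112 and 216 genes passed, and without the WT/HAQ cGAMP library 99 and 115. DESeq2's Wald test on all 6 libraries called 521 and 794 genes.

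The smallest adjusted p of the line test went to genes whose gap was of nearly the same size with and without cGAMP. The model counts a difference between these gaps as residual spread, so nothing is read from their equal size. PPP1R1B, a phosphatase inhibitor known from dopamine signalling, had 11783 normalized counts in treated WT/HAQ and 2543 in treated WT/-, against 11616 and 2374 in the controls. Its line difference was 2.25 ± 0.08 on the log2 scale (SE, edgeR adjusted p = 0.0023). CCNA1, a cyclin of meiosis and of some tumours, had 2269 against 417 after cGAMP and 1266 against 213 before (line difference 2.51 ± 0.10). FBLN2, a fibulin of the extracellular matrix, had 2118 against 494 and 1914 against 453 (2.09 ± 0.09). In the other direction stood MMP1, a collagenase, with 1218 against 13087 normalized counts after cGAMP and 1491 against 12916 before (-3.27 ± 0.11). The matrix protease MMP7 had 141 against 1261 and 163 against 1233 (-3.04 ± 0.11). AMTN, a matrix protein of tooth enamel, had 2679 against 11281 and 2399 against 10175 (-2.08 ± 0.08). The adjusted p of the edgeR test for AMTN was 0.0023. In none of the 6 did the libraries of WT/HAQ and WT/- overlap, which their choice by the smallest adjusted p favours.

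Among the genes already different, the widest treated gap toward WT/HAQ was in KCNK15, a potassium channel subunit, with 158 normalized counts in WT/HAQ and 4.01, from 3 reads, in WT/-. Its log2 ratio was 5.30 (95% counting interval 3.73 to 6.87) after cGAMP, and the controls held 175 against 1.87, from 2 reads. ANGPTL4, a secreted inhibitor of lipoprotein lipase, had 3302 against 86.8 after cGAMP and 413 against 16.8 before, so that both lines had more of it after cGAMP and the log2 ratio was 5.25 (4.90 to 5.60). The microtubule protein MAP6 (126 against 4.01, from 3 reads, interval 3.41 to 6.55), the cytoskeletal adaptor HCLS1 (194 against 8.01) and the relaxin receptor RXFP1 (588 against 28.0) followed. In the controls HCLS1 had 211 against 5.60 and RXFP1 308 against 2.80, the latter from 3 reads. The control gap was the wider one in KCNK15, HCLS1 and RXFP1. The counting intervals of the treated and control ratios overlapped in KCNK15 and HCLS1, and only in RXFP1 did they not. HCLS1 and RXFP1 were at 4.38 and 3.28 normalized counts in treated HAQ/-, below the WT/- level, whereas ANGPTL4 had 1089 there.

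Toward WT/-, the widest treated gaps among the genes already different were in UBD, SRGN, CCL20, DAB2, ZNF462 and IGFN1. UBD, the ubiquitin-like modifier FAT10, had 0 counts in both WT/HAQ libraries and 8.40 and 74.8 normalized counts in WT/- without and with cGAMP, so it was at least 26.2-fold higher in treated WT/-. SRGN, a proteoglycan of secretory granules, had 7.60 in treated WT/HAQ against 199 in treated WT/-, and 13.3 against 228 in the controls. DAB2, an endocytic adaptor, had 10.5 against 207 after cGAMP, and the zinc finger gene ZNF462 had 22.8 against 417. IGFN1, a protein with immunoglobulin and fibronectin domains, had 262 against 4599 and was the most abundant of the 6. The log2 ratio was -4.71 after cGAMP and -4.10 before for SRGN, -4.31 and -3.80 for DAB2, -4.13 and -3.38 for IGFN1, and -4.19 and -2.91 for ZNF462. The genes were ranked by the treated gap, which favours a wider gap after cGAMP, so nothing is read from that order.

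Genes that differed after cGAMP only included strong responders of unequal size. IGF2, an insulin-like growth factor, stood at 15.9 normalized counts in the control and 1953 in the cGAMP library of WT/HAQ. The corresponding levels were 11.2 and 179 for WT/- and 18.3 and 24.1 for HAQ/-. The treated log2 ratio was 3.45 (3.20 to 3.70). CAVIN2, a coat protein of caveolae, had 190.0 and 3683 in WT/HAQ and 242 and 719 in WT/-, a treated log2 ratio of 2.36 (2.23 to 2.49). OPRK1, the kappa opioid receptor, had 8.84 and 222 in WT/HAQ and 8.40 and 29.4 in WT/-. For these 3 genes the level after cGAMP was higher than the control in both lines, and the treated lines were 10.9-fold (IGF2), 5.13-fold (CAVIN2) and 7.57-fold (OPRK1) apart. SYT13, a synaptotagmin, had 8.84 and 76.0 in WT/HAQ but 13.1 and 10.7 in WT/-. SARM1, an NAD-cleaving enzyme of axons, had 49.5 and 64.6 in WT/HAQ and 41.1 and 12.0 in WT/-, and its gap came from the lower WT/- cGAMP library. The read-through gene POC1B-GALNT4 had the widest gap, 61.8 against 0 counts in treated WT/-. Its reads overlap POC1B and GALNT4, and the sum of the 3 genes differed by 0.13 on the log2 scale (575 against 526 normalized counts), so the call is uncertain.

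Toward WT/-, the 6 widest gaps seen after cGAMP only were in FGF5, PLEKHB1, IL6R, PER1, TRIM16 and NCAM1. IL6R, the interleukin-6 receptor, had 902 normalized counts in the WT/HAQ control and 98.8 after cGAMP, against 1044 and 389 in WT/- and 833 and 504 in HAQ/-. The treated log2 ratio was -1.98 (-2.30 to -1.65) and the untreated one -0.21. The growth factor FGF5 had 124 and 27.6 in WT/HAQ and 177 and 169.6 in WT/-, so only the WT/HAQ pair differed by more than 2-fold. PER1, a repressor of the circadian clock, had 1585 and 313 in WT/HAQ and 2188 and 1036 in WT/-, and the ubiquitin ligase TRIM16 had 509 and 137 against 664 and 439. TRIM16 can share reads with its copy TRIM16L, which leaned to the same side (21.9 against 58.8 after cGAMP). In IL6R, FGF5, PER1 and TRIM16 the cGAMP library of WT/HAQ lay further below its control than that of WT/- did. PLEKHB1 (11.4 against 53.4) and the adhesion molecule NCAM1 (19.0 against 60.1) instead had their highest level in treated WT/-.

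Membership in the class different after cGAMP only requires unequal ratios of cGAMP over control, so the following counts describe the genes and nothing is read from them. Of the 180 genes higher in WT/HAQ after cGAMP only, 56 were at least 2-fold higher in the cGAMP than in the control library of WT/HAQ and 16 were so in WT/-, while 46 were at least 2-fold lower with cGAMP in WT/- and 2 in WT/HAQ. Of the 312 genes higher in WT/-, 147 were at least 2-fold lower with cGAMP in WT/HAQ and 32 in WT/-, while 56 were at least 2-fold higher with cGAMP in WT/- and 7 in WT/HAQ. Over all genes, 7.38% were at least 2-fold higher and 5.36% at least 2-fold lower with cGAMP in WT/HAQ, and 6.58% and 3.48% in WT/-. Of the 209 genes whose gap toward WT/- was present in the controls and under 1.5-fold after cGAMP, 119 were at least 2-fold higher with cGAMP in WT/HAQ and 42 in WT/-. Among them were the ISGs ISG15 and IFIT3.

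**Figure D2:**
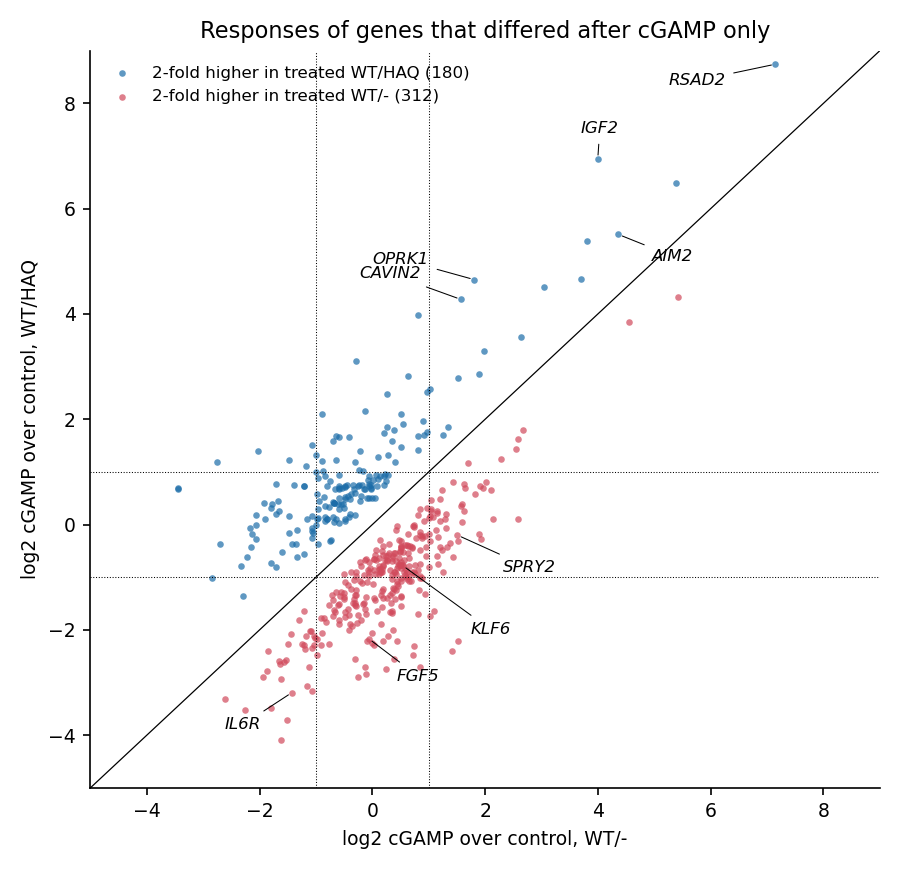
Each point is a gene that differed at least 2-fold after cGAMP and under 1.5-fold in the controls, with the log2 ratio of its cGAMP over its control library in WT/- on the x axis and in WT/HAQ on the y axis. The 180 genes higher in treated WT/HAQ (blue) lie above the diagonal of equal responses and the 312 higher in treated WT/- (red) below it, as the rule requires, and most of the red points lie under 0 on the y axis.

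Few genes leaned to opposite sides with and without cGAMP, and several of them held few reads. APLN, the ligand of the apelin receptor, had 6.19 and 422 normalized counts in WT/HAQ and 10.3 and 77.5 in WT/-, and its treated log2 ratio was 2.45 (2.05 to 2.84). ACTN2, a muscle alpha-actinin, had 6.19 and 37.1 in WT/HAQ and 2.80 and 184 in WT/-. PTGER2, a receptor for prostaglandin E2, had 18.6 and 35.2 against 10.3 and 142. In all 3 the side taken by the controls came from levels under 20 normalized counts and its counting interval included equal levels. The remaining genes of this kind with the widest gaps, TBC1D3H, TBC1D3L and SULT1A3, have near-identical copies between which reads can be divided. The 11 genes of the TBC1D3 family summed to 143 normalized counts in treated WT/HAQ and 149.6 in treated WT/-, so the calls on its single members are uncertain. SULT1A3 and SULT1A4 summed to 177 against 295, lower in WT/HAQ, whereas SULT1A3 alone was higher there (72.2 against 20.0).

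In the cGAS-STING pathway, STING1 itself carried the widest gap toward WT/HAQ. It had 1780.2 normalized counts in treated WT/HAQ and 553 in treated WT/-, a log2 ratio of 1.69 (1.53 to 1.84), against 0.92 in the controls (669 and 353). The line difference was 1.32 ± 0.19 (SE, edgeR adjusted p = 0.0247). The edgeR adjusted p was 0.064 without the WT/HAQ cGAMP library, 0.188 without the WT/- control, 0.224 without the WT/- cGAMP library and 0.27 with no treatment term, so the call was lost in each, and it was 0.0215 without the WT/HAQ control. STING1 lies on chromosome 5, and its 23 analysed neighbours within 1 Mb had a median treated log2 ratio of 0.07, with 0 of them 2-fold higher in WT/HAQ and 5 in WT/- (4.62% and 6.86% of all genes). Of the 23 analysed members of the pathway and of cGAMP handling, only STING1 was 2-fold higher in treated WT/HAQ, and IKBKE and SMPDL3A were 2-fold higher in treated WT/-, shares near the 4.62% and 6.86% of all genes. IKBKE, the kinase related to TBK1, had 63.7 against 430.1 normalized counts after cGAMP and 74.2 against 330.4 before (line difference -2.44 ± 0.19, edgeR adjusted p = 0.00724). SMPDL3A, an enzyme that degrades cGAMP, had 11.4 against 30.7, from few reads. The kinase TBK1 (523 against 924, log2 ratio -0.82) and the factor IRF3 (945 against 1406, -0.57) were under 2-fold apart, and the median of the list was -0.02.

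All 6 analysed interferon genes had the lower treated level in WT/HAQ, where 52.2% of all genes did, and 3 of them were 2-fold lower (6.86% of all genes). IFNB1 had 1259 normalized counts in treated WT/HAQ and 2583 in treated WT/-, a log2 ratio of -1.04 (-1.14 to -0.94). Its controls held 5 and 2 reads, too few for the untreated ratio to have a side. IFNL2 had 216 against 518 and its near-identical neighbour IFNL3 272 against 538, so that reads may be shared between them. IFNA1 had 5.70 against 13.4, and the interval of its ratio (-2.63 to 0.18) included equal levels. The median log2 ratio of the list was -1.01 after cGAMP. In the controls it was -0.24 over the 4 genes with a control ratio, IFNB1 among them, so the 2 medians cover different genes. The chemokines that attract T cells pointed to the same side at 5 of 6 genes, with CXCL9 at 35.2 against 68.1, CXCL10 at 1967 against 3549 and CXCL11 at 1249 against 2021. None of the 6 was 2-fold higher in treated WT/HAQ or WT/- (4.62% and 6.86% of all genes), and CCL5 was level at 4384 against 4335.

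Most ISGs were within 2-fold of each other in the treated lines. Of the 38 genes of the ISG signature, 33 were within 2-fold between the treated lines, 3 were 2-fold higher in WT/HAQ and 2 in WT/-, shares near those of all genes (4.62% and 6.86%). RSAD2, the antiviral enzyme viperin, had 50.4 and 21619 normalized counts in WT/HAQ and 45.7 and 6498 in WT/-, a treated log2 ratio of 1.73 (1.69 to 1.78). CMPK2, a mitochondrial nucleotide kinase, had 19.4 and 1755 against 18.7 and 776 (1.18). MX1, an antiviral GTPase, had 129 and 16470.4 against 213 and 8000.4 (1.04), so it was lower in the WT/HAQ control and higher after cGAMP. On the other side stood CASP1, the inflammasome caspase, with 28.5 against 156, and GBP4, a guanylate-binding protein, with 672 against 1379.7. IFIT3 (32391 against 31536) and ISG15 (18883 against 16952) were within 1.2-fold of each other after cGAMP. In the controls 8 of the 38 were 2-fold higher in WT/- (5.72% of all genes) and 0 in WT/HAQ, and the median log2 ratio was -0.41, against 0.05 after cGAMP. IFIT3 and ISG15 were among the 8, at 237 against 607 and 139.7 against 350.0.

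Interferon effectors outside that signature stayed under the limit, with 0 of 38 genes 2-fold apart in either direction after cGAMP (4.62% and 6.86% of all genes) and 9 of 38 higher in WT/- in the controls (5.72% of all genes). APOL1, an apolipoprotein with trypanolytic activity, came closest to the limit, at 30711 against 16928 normalized counts (log2 ratio 0.86). TIPARP, the mono-ADP-ribosyltransferase PARP7, had 5096 against 7314 (-0.52), and USP18, a brake on interferon signalling, 2436 against 2307 (0.08). Of 11 nucleic acid sensors and adaptors, only AIM2, a DNA sensor, was 2-fold apart and higher in WT/HAQ (4.62% of all genes), at 403 against 192 after cGAMP and 8.84 against 9.33 before. TLR3, the endosomal receptor for double-stranded RNA, had 125 against 232 (-0.89). Of 21 interferon receptor, JAK, STAT, IRF and feedback genes, 2 were 2-fold higher in treated WT/-, a share near the 6.86% of all genes, and in the controls 2 were higher in WT/HAQ and 3 in WT/- (4.26% and 5.72% of all genes). The 2 after cGAMP were SOCS3 and SOCS1, inhibitors of JAK signalling. SOCS3 had 677 against 3964 after cGAMP and 341 against 1606 before (-2.39 ± 0.16, edgeR adjusted p = 0.00507), and SOCS1 had 191 against 402. SOCS2, at 212 against 107, leaned to WT/HAQ with a log2 ratio of 0.99. None of 21 genes of MHC class I presentation was 2-fold higher in treated WT/HAQ or WT/- (4.62% and 6.86% of all genes). ERAP1, a peptide-trimming enzyme, had the largest difference (423 against 616, -0.54).

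Among the gene lists, the median farthest from 0 in the treated pair was that of cytokines that recruit neutrophils or act as interleukins and colony-stimulating factors. Of 19 analysed genes, 13 were at least 2-fold higher in treated WT/- and 1 in treated WT/HAQ, the alarmin IL33 (20.0 against 5.34 normalized counts), where 6.86% and 4.62% of all genes were. The median log2 ratio was -2.32 after cGAMP and -1.56 in the controls, against -0.02 and 0.00 over all genes. The list was chosen with earlier results of these data known, so its count is a description. CCL20, a chemokine for dendritic cells and Th17 cells, had 18.1 normalized counts in treated WT/HAQ and 381 in treated WT/-, against 221 and 1372 in the controls and 5.47 in treated HAQ/-. TNF had 178 against 2010.1 after cGAMP and 661 against 4620.5 before. CXCL3 had 181 against 1540.0 after and 1303 against 4497 before. In each of these 3 genes the treated ratio was wider than the untreated one. They were picked by the size of the treated ratio, which favours this, so nothing is read from it.

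CXCL8, the neutrophil chemokine interleukin-8 and the most abundant gene of the group, had 20328 and 2331 normalized counts in WT/HAQ, 46002 and 17893 in WT/-, and 3138 and 822 in HAQ/-. Its log2 ratio went from -1.18 in the controls to -2.94 after cGAMP, and its log2 ratio of cGAMP over control was -3.12 in WT/HAQ and -1.36 in WT/-. IL6, a cytokine of acute inflammation, stood the other way, with 851 and 1987 in WT/HAQ and 6939.6 and 9924 in WT/-, so its log2 ratio narrowed from -3.03 to -2.32. CSF2, which encodes GM-CSF, had no count in treated WT/HAQ and 5 in treated WT/-, against 43 and 304 reads in the controls. For 13 of the 19 genes the ratio lay further toward WT/- after cGAMP than before, as it did for 54.4% of all 15068 genes. Of the 19, 14 were higher in WT/- in the edgeR line test at an adjusted p under 0.05 and 0 were lower, where 4.99% and 3.81% of all genes were. Without the WT/HAQ control or the WT/HAQ cGAMP library 11 passed, in each case all among the 14, and without either WT/- library 0 did.

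The NF-kB subunits, inhibitors and feedback genes lay on the same side. All 15 analysed had the lower treated level in WT/HAQ (52.2% of all genes), and 10 were at least 2-fold lower (6.86% of all), with a median log2 ratio of -1.36 after cGAMP and -0.90 in the controls. TRAF1, a signalling adaptor, had 162 against 2042 normalized counts after cGAMP and 498 against 2236 before (-3.66 and -2.17). TNFAIP3, the ubiquitin-editing inhibitor A20, had 3675 against 22054 after and 10044 against 30554 before (-2.59 and -1.61). NFKBIE, an IkB protein, had 349 against 1437 after and 955 against 2896 before. In all 3 the control of WT/- exceeded every WT/HAQ library. The edgeR line test called 11 of the 15 higher in WT/- (4.99% of all genes), and 10 without the WT/HAQ control library (9 of them among the 11), 4 without the WT/HAQ cGAMP library and 0 without either WT/- library. HAQ/- took the lowest level of the lines for TRAF1 (78.8 with cGAMP), TNFAIP3 (477) and NFKBIE (196). ICAM1, an adhesion molecule for leukocytes, had 272 against 2503 after cGAMP and 1431 against 5209 before.

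The letters GGAANNNCC printed above for CXCL8, CCL20 and ICAM1 were present in 9 of 14 promoters of the cytokine list (64.3%) and in 8 of 13 of the NF-kB list (61.5%), against 23.2% of all analysed promoters. They were not particular to these lists. The letters also stood in promoters of the T-cell chemokines (2 of 3), interferon genes (3 of 6), checkpoint genes (6 of 12) and ERK output (4 of 8). The same held for the sensors (5 of 11), complement (4 of 9), death genes (5 of 13) and the ISG signature (11 of 31). MHC class I and cGAS-STING genes had 6 of 17 each. Shares below that of all promoters included the immediate-early (1 of 13), adhesion (3 of 21) and matrix genes (4 of 24). Among the genes already different they were in 28.5% of 295 promoters on the WT/- side and in 17.0% of 212 on the WT/HAQ side. Among the genes different after cGAMP only they were in 40 of 174 on the WT/- side and in 11 of 104 (10.6%) on the WT/HAQ side. The letters GAAANNGAA were in 21 of 31 promoters of the ISG signature (67.7%). They were in 8.62% of the WT/--side and 9.62% of the WT/HAQ-side promoters of the genes different after cGAMP only, against 6.45% of all. TGANTCA, an AP-1 site, was in 11.5% of the former and 6.73% of the latter, and in 4.79% of all. TGACGTCA, a cAMP response element, was in 2.30% and 2.88%, and in 3.22% of all.

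**Figure D3:**
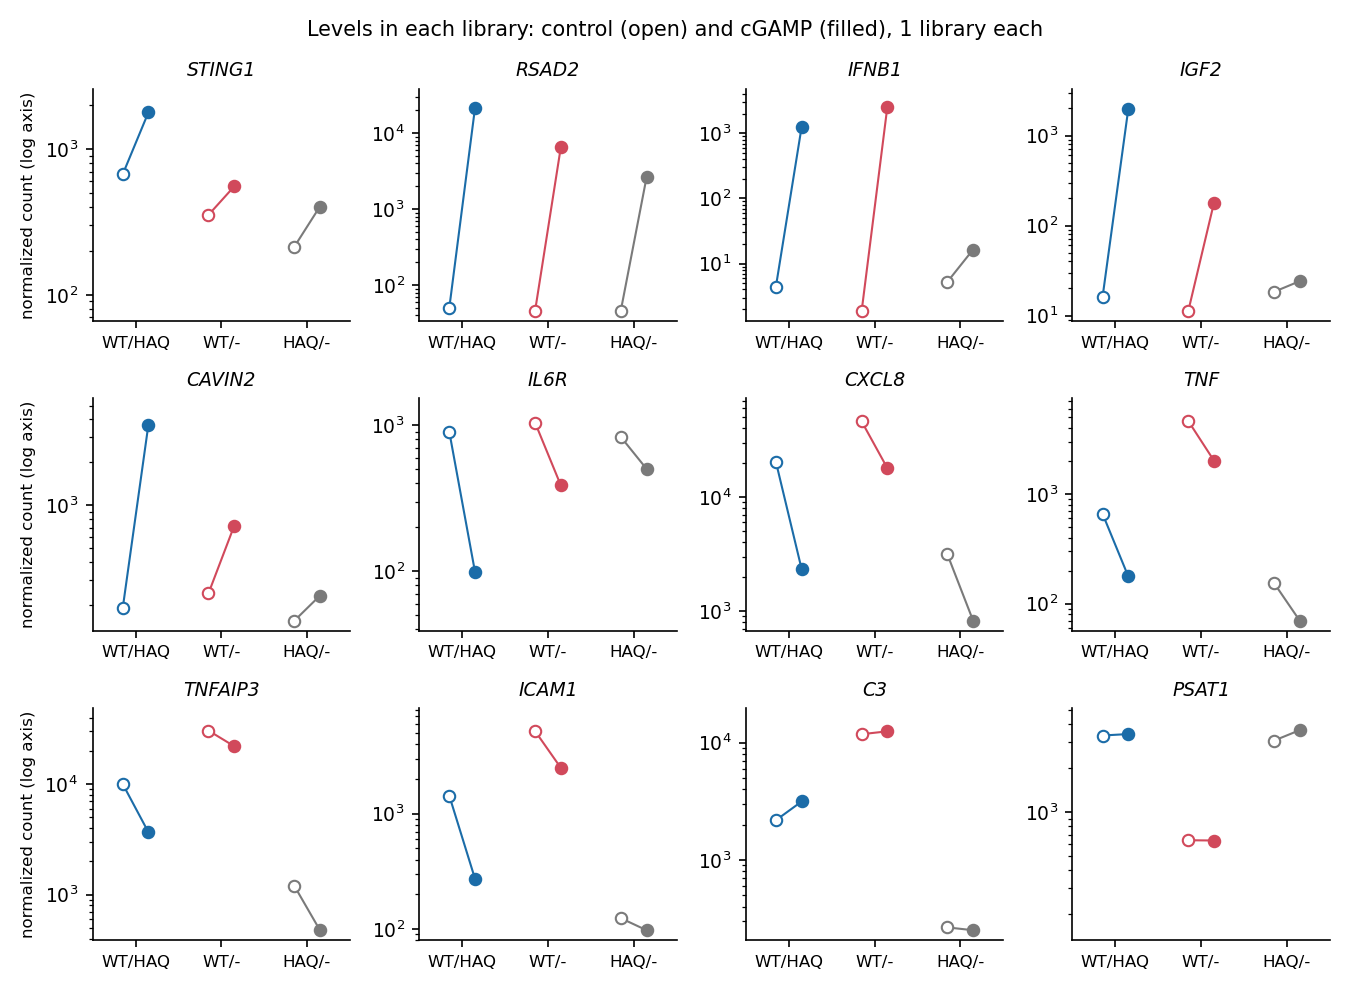
Normalized counts of 12 genes on a log axis in the 6 libraries, with open circles for the control and filled circles for the cGAMP library of each line, joined by a line, and 1 library per point. CXCL8, TNF, TNFAIP3 and ICAM1 were highest in WT/- and lowest in HAQ/- with and without cGAMP, IGF2, CAVIN2 and RSAD2 parted only in the filled circles, and PSAT1 was level in WT/HAQ and HAQ/- and lower in WT/-.

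Early-response genes leaned to WT/- as well. All 17 immediate-early genes had the lower treated level in WT/HAQ (52.2% of all genes) and 7 were 2-fold lower (6.86% of all), with a median log2 ratio of -0.89 after cGAMP and -0.67 in the controls. ATF3, a stress-induced transcription factor, had 5997 and 3206 normalized counts in WT/HAQ and 10485 and 11902 in WT/-. KLF6, a zinc finger factor, had near-equal controls (10551 and 11373) and 6158 against 16498 after cGAMP, lower than its control in WT/HAQ and higher in WT/-. ZFP36, which destabilizes cytokine transcripts, had 1787 against 5272 after and 1415 against 5015 before. Of 12 genes of ERK output, 1 was 2-fold higher in treated WT/HAQ and 1 in WT/-, shares near the 4.62% and 6.86% of all genes. SPRY2, a feedback inhibitor of growth factor signalling to ERK, had 1016 and 884 in WT/HAQ and 689 and 1961 in WT/-, and thus changed sides. DUSP4, an ERK phosphatase, was higher in WT/HAQ at 3609 against 1122, and DUSP5 had 988 against 1945 (-0.98). Of the 11 ERBB receptors and ligands, 3 were 2-fold higher in treated WT/HAQ and 1 in WT/- (4.62% and 6.86% of all genes). The edgeR line test called 4 higher in WT/HAQ and 0 in WT/- (3.81% and 4.99% of all genes), 2 without either WT/HAQ library and 0 without either WT/- library. The ligands EREG (372 against 52.1) and AREG (115 against 37.4) were higher in treated WT/HAQ and were so in the controls, as was the receptor ERBB4 (377 against 132 after cGAMP). The ligand NRG1 was lower in treated WT/HAQ (382 against 1253) and had 2158 against 3483 in the controls.

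In matrix and protease genes, 11 of 38 were 2-fold higher in treated WT/- (6.86% of all genes) and 3 in treated WT/HAQ, a share near the 4.62% of all genes. MMP1 and MMP7, given above, had the widest gaps toward WT/-. COL3A1, a fibrillar collagen, had 51 reads in treated WT/HAQ, 41 in treated HAQ/- and 0 or 1 in each other library, so it was at least 12.1-fold higher in treated WT/HAQ than in treated WT/-. The 32 adhesion genes were evenly split, with 16 higher and 16 lower in treated WT/HAQ and a median log2 ratio of -0.02. Among them 5 were 2-fold higher in treated WT/- and 1 in WT/HAQ (6.86% and 4.62% of all genes), with ITGB3, an integrin subunit, at 427 against 2403 after cGAMP and 544 against 2285 before. Of 16 complement genes, 7 were 2-fold higher in treated WT/- and 2 in WT/HAQ (6.86% and 4.62% of all genes). C3, the central component, had 3153 against 12508 after and 2182 against 11817 before (line difference -2.20 ± 0.16, edgeR adjusted p = 0.00614). The proteases C1S (208 against 760.0) and C1R (188 against 617) stood likewise. CD55, which shields cells from complement, was higher in treated WT/HAQ at 4879.6 against 2039.5, and was the 1 of 14 checkpoint and suppressive surface genes at 2-fold (4.62% of all genes). PVR, the poliovirus receptor and a ligand of TIGIT, lay just short of 2-fold and lower in WT/HAQ, at 1501 against 2992 (-0.995).

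Of 24 genes of sterol and fatty acid synthesis, 23 had the lower treated level in WT/HAQ (52.2% of all genes) and 4 were 2-fold lower (6.86% of all), with a median log2 ratio of -0.73 after cGAMP and -0.53 in the controls. HMGCS1, an early enzyme of cholesterol synthesis, had 18098 and 7322 normalized counts in WT/HAQ and 26205 and 18489 in WT/-. LSS, lanosterol synthase, had 1011 against 2454 after and 1353 against 3367 before, and MSMO1, a sterol oxidase, 1819 against 3753 after cGAMP. The edgeR line test called 11 of the 24 higher in WT/- (4.99% of all genes), but 3 without the WT/HAQ control library (2 of them among the 11) and 0 without any 1 of the other 3 libraries. Of 23 unfolded protein and stress response genes, 14 had the lower treated level in WT/HAQ, and the median log2 ratio was -0.11. At 2-fold, 3 were higher in treated WT/HAQ and 1 in WT/-, where 4.62% and 6.86% of all genes were. The 3 were PHGDH and PSAT1, enzymes of serine synthesis, and ASNS, asparagine synthetase. PHGDH had 1177 against 183 after cGAMP and 1043 against 123 before, PSAT1 had 3424 against 638 and 3347 against 641, and ASNS had 1223 against 284 and 1188 against 229.6. Their line differences were 2.88 ± 0.13, 2.40 ± 0.10 and 2.24 ± 0.11 (SE), with edgeR adjusted p of 0.00231, 0.0023 and 0.00258. HAQ/- had 3087 and 3643 of PSAT1, close to WT/HAQ.

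Of 21 aldehyde dehydrogenase and detoxification genes, 5 were 2-fold higher in treated WT/- and 2 in treated WT/HAQ (6.86% and 4.62% of all genes). Over the whole list 13 genes were higher and 8 lower in treated WT/HAQ, where 47.8% of all genes were higher, and the median log2 ratio was 0.13. The edgeR line test called 5 of the 21 higher in WT/HAQ and 2 in WT/- (3.81% and 4.99% of all genes). These became 1 and 1 without the WT/HAQ control library, 2 and 0 without the WT/HAQ cGAMP library, and 0 and 0 without either WT/- library. AKR1B10, an aldo-keto reductase, had 2.85 normalized counts in WT/HAQ, from 3 reads, and 17.4 in WT/- after cGAMP. CYP1A1, a target of the aryl hydrocarbon receptor, had 2.85, again from 3 reads, against 14.7, and AKR1C2, a hydroxysteroid dehydrogenase, was higher in WT/HAQ at 484 against 179, as was its close copy AKR1C1 at 1963 against 1346. The log2 ratios of AKR1B10 and CYP1A1 rest on few reads, with counting intervals from -4.32 to -0.90 and from -4.10 to -0.63. Of 32 genes of S phase and G2/M, 28 had the higher treated level in WT/HAQ (47.8% of all genes), with a median log2 ratio of 0.36 after cGAMP and 0.37 in the controls. MCM5, a subunit of the replicative helicase, had 963 against 449, TYMS, thymidylate synthase, 1096 against 526, and the cyclin CCNE2 136 against 70.8. Only MCM5 and TYMS reached 2-fold, a share near the 4.62% of all genes. Among 21 death ligands, receptors, caspases and BCL2 genes, only CASP1 and BBC3 were 2-fold higher in treated WT/-, a share near the 6.86% of all genes. BBC3, the pro-apoptotic protein PUMA, had 55.7 and 413 in WT/HAQ and 258 and 1302 in WT/-. CASP10 had 295 against 572 (-0.96).

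**Figure D4:**
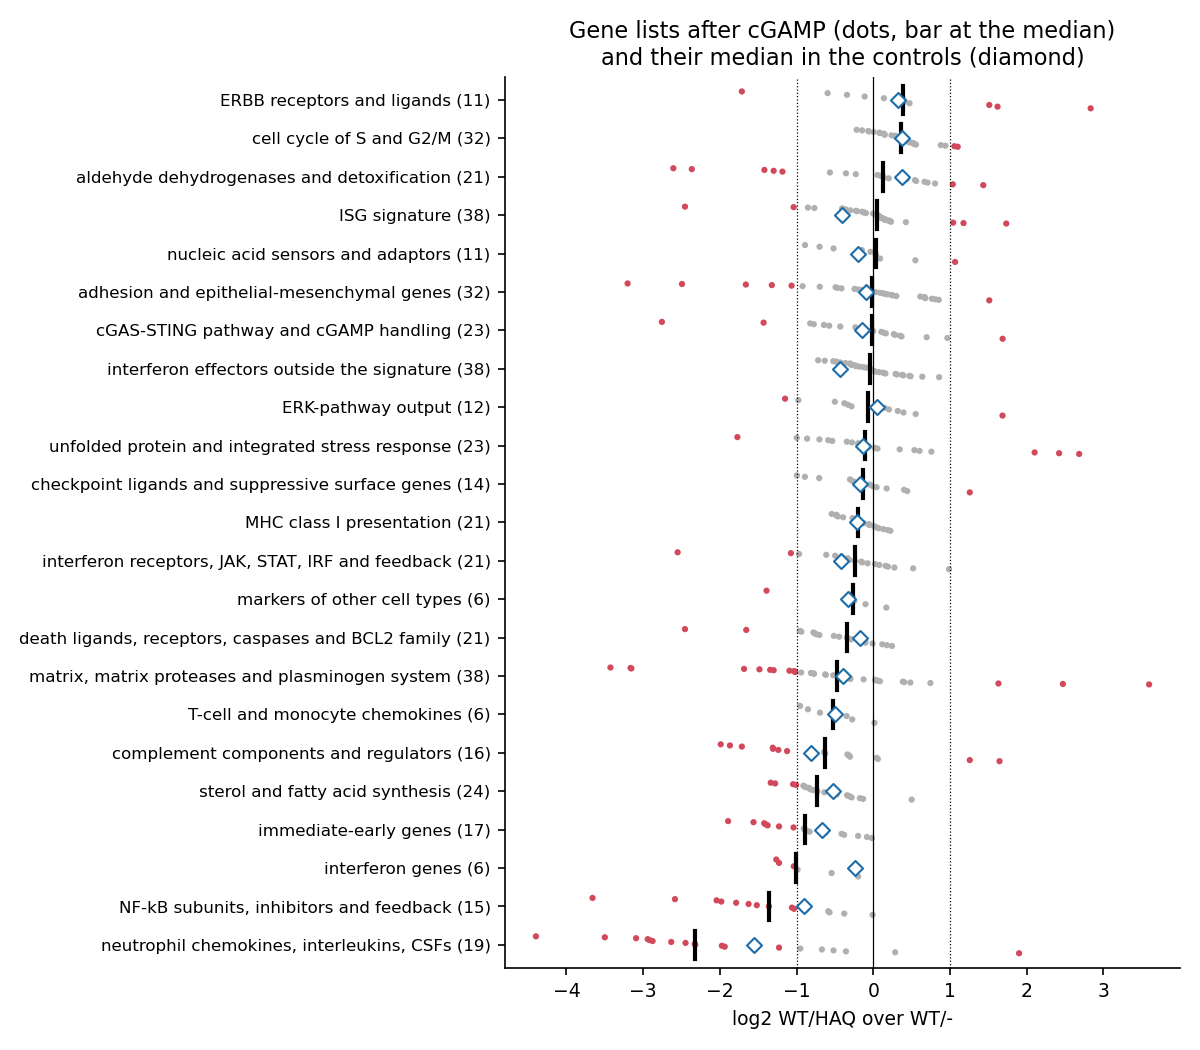
Log2 ratio of WT/HAQ over WT/- for the members of 23 gene lists, with 1 dot per gene after cGAMP (red at 2-fold or more), a bar at the treated median and a diamond at the median of the controls, and the number of analysed genes in brackets. The median lay at -2.32 for the cytokine list and -1.36 for the NF-kB list, and between -1.01 and 0.39 for all others.

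The HAQ/- libraries were set beside the pair in a comparison added with the values known. Among the genes already different and higher in WT/HAQ, the HAQ/- control lay nearer to WT/HAQ than to WT/- for 238 of 330 (72.1%), and among those higher in WT/- it did so for 361 of 431 (83.8%). The HAQ/- cGAMP library did so for 224 (67.9%) and 341 (79.1%). Among the genes different after cGAMP only, the HAQ/- cGAMP library lay nearer to WT/HAQ for 109 of 180 (60.6%) of those higher in WT/HAQ and 159 of 312 (51.0%) of those higher in WT/-. The WT/HAQ libraries chose the members, so these shares are descriptions and have no test.

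Gaps between the lines were also uneven along the genome. The 264 analysed genes of chromosome 13 had a median log2 ratio of -0.35 after cGAMP and -0.27 in the controls, lower in WT/HAQ for 83.0% and 74.6% of them. The 726 genes of chromosome 7 had -0.19 and -0.13. The other 21 chromosomes lay between -0.07 and 0.11 after cGAMP and between -0.07 and 0.16 in the controls. In 288 runs of 50 neighbouring genes, the treated and untreated medians had a Pearson r of 0.74 and a Spearman rho of 0.68. All 5 runs of chromosome 13 were among the 10 lowest, with 2 of the 14 runs of chromosome 7 and 3 of chromosome 1. On chromosome 13 the HAQ/- control differed from the WT/HAQ control by a median of -0.08 and from the WT/- control by -0.31.

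**Figure D5:**
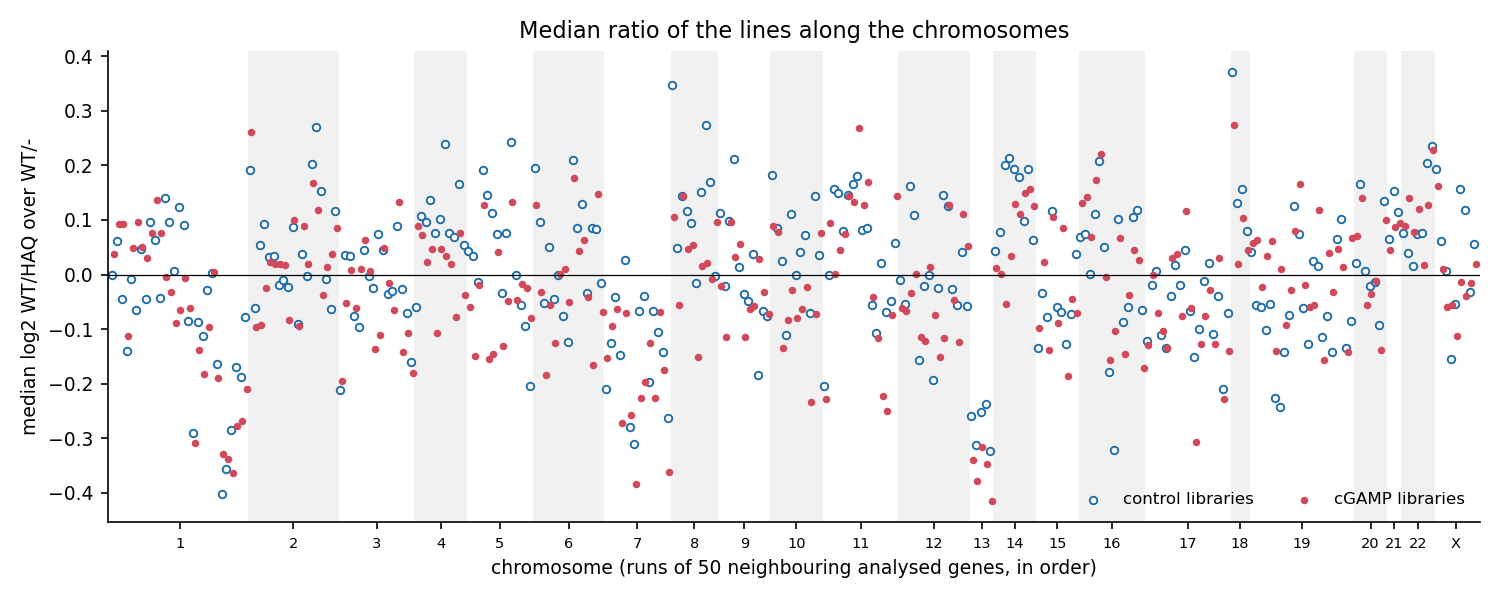
Median log2 ratio of WT/HAQ over WT/- in 288 runs of 50 neighbouring analysed genes in chromosome order, in the control libraries (open blue) and in the cGAMP libraries (red), with shading for every other chromosome. All 5 runs of chromosome 13 lie below 0 in both pairs, as do the runs at the end of chromosome 1.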

How the data were processed

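The authors deposited 1 table of estimated counts per Ensembl gene for the 6 libraries, with the expected count of each gene not scaled to depth. The submitters' processing notes name STAR, RSEM and the genome build GRCh38 (hg38), and their versions and the annotation are not given in the sources used here. All 6 columns matched a sample, and 0 columns were unmatched. The estimated counts were rounded to whole numbers, and genes with a mean of 10 or more counts were kept. Counts were scaled by TMM factors from edgeR 4.0.16 in R 4.3.3, and for ratios counts under 3 were set to 3. A gene was called at 2-fold, with controls under 1.5-fold apart for the class after cGAMP only. With 1 library per line and treatment the treated pair allows no test, and 95% intervals for the share of a pair's reads (Wilson) cover counting error only. The line test was edgeR's quasi-likelihood test on all 6 libraries with line and treatment as terms and Benjamini-Hochberg adjustment at 0.05, with DESeq2 1.42.0 as an alternative, and it was checked on simulated data. The members, gene lists and the rule for named genes (STING1, 7 response genes, the widest treated gaps per class, the smallest adjusted p and up to 3 genes per list) were chosen with earlier results of these data known. The ISG signature is the list of the study. Annotation came from GENCODE 44, which held 56434 of 60498 identifiers and 14995 of the 15126 analysed, and promoters from RefSeq on GRCh38.p14. Tables and plots used Python 3.11.15 with pandas 2.3.3, scipy 1.17.1 and matplotlib 3.10.9. Fold changes computed by others were not used. Genes with near-identical copies may have had reads divided among them by the estimation. Of the genes named by the rule, 1 is not reported here.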

Additional observations from a re-analysis of the deposited data

Results flagged for a closer look

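In 49 of 15087 genes the cGAMP and the control library differed by at least 2-fold in opposite directions in WT/HAQ and WT/-. Of the protein-coding genes with at least 50 normalized counts in the higher treated library, 2 did so. For TBC1D3H the log2 ratio of cGAMP over control was 5.07 in WT/HAQ, where the control held 1 read, and -1.87 in WT/-. For TBC1D3L it was -3.12 in WT/HAQ, where the cGAMP library held 0 reads, and 2.04 in WT/-. With 1 library per line and treatment, the difference between the lines was not tested. TBC1D3H and TBC1D3L belong to a family of near-identical copies, and the 11 analysed members together had log2 ratios of 0.61 in WT/HAQ and 0.27 in WT/-.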

How the results depend on the processing

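No pairing of replicates was possible because each line and treatment has 1 library, so the groups share only replicate number 1. The treatment term of the line test set the lines against each other within each treatment. All 97 named genes kept the sign of their treated ratio in the 564 values from 6 alternatives of scaling, depth, floor and count minimum. Scaling by total counts moved the median of all genes by 0.06 on the log2 scale, and with it the treated medians of the ISG signature (0.11), chromosome 7 (-0.12) and chromosome 13 (-0.28). Counts of genes followed the thresholds. At a mean count of at least 1, there were 1656 genes higher in treated WT/-, and 1099 and 1500 higher in untreated WT/HAQ and WT/-. At a mean of at least 50, 319 and 473 genes were higher in treated WT/HAQ and WT/-, 293 and 399 in the untreated lines, 189 and 234 were already different, and 60 and 101 differed after cGAMP only. In the same order, a call at 1.5-fold gave 1496 and 2208, 1493 and 1962, 767 and 1154, and 601 and 936, and a call at 3-fold gave 313 and 394, 280.0 and 321, 146 and 155, and 48 and 84. With a closer limit on the gap of the controls, 99 and 162 genes differed after cGAMP only. The edgeR line test called 1069 and 1480 genes on the 4 libraries of the pair alone and 132 and 115 with no treatment term. Leaving out 1 library gave 0 to 112 genes higher in WT/HAQ and 0 to 216 in WT/-, with 0 when either WT/- library was left out (992 and 1266, or 1129 and 1300, at an unadjusted p under 0.05). DESeq2 on all 6 libraries called 521 and 794. A library left alone in its line was assumed to vary like the others. Lower counts widen the intervals, and the 5880 genes with a mean of 1 to 10 were not analysed.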
